A study of Mus musculus with 9 samples.

Results

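Interferon-stimulated genes are the genes whose transcription rises when a cell is exposed to interferon. The set described here holds 40 such mouse genes, listed by symbol: the Ifit and Oas families, transcription factors, nucleic acid sensors, further effectors and regulators, interferon-inducible GTPases and the Ifitm family. Of the 40, 39 were matched by Ensembl gene ID among the 38293 genes of the count table, and all 39 passed the filter on low counts that kept 14124 genes for testing. The other member, Gbp5, is not analysed here.

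All libraries came from left ventricle (labelled as infarcted region) of male mice, strain C57BL/6 and 8 weeks old, with no transgene named. In ischemia-reperfusion (I/R) the LAD, the coronary artery that feeds the front of the left ventricle, was tied off for 1 hour and then opened. There were mice 1 day after I/R (mice 4, 5 and 6), mice 14 days after I/R (3 mice) and mice given a sham operation (mice 1, 2 and 3). The table gives the 3 libraries of the 14-day group a shared name, so they are called A, B and C here as names only. When sham tissue was taken is not stated in the labels.

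Type I interferons (the interferon alpha and beta proteins) bind the receptor made of Ifnar1 and Ifnar2, and interferon gamma binds the receptor made of Ifngr1 and Ifngr2. Janus kinases on these receptors phosphorylate Stat proteins. A complex that holds Stat2 and Irf9 binds a DNA element called the interferon-stimulated response element (ISRE), which other Irf proteins also bind, and interferon gamma acts largely through another element, the gamma-activated site (GAS). The proteins made from the target genes restrict viruses and intracellular microbes, and in the heart after infarction such genes are known to be expressed by macrophages and other leukocytes as well as by resident cells.

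Total counts ran from 20215781 to 36816818 a library, and genes encoded by mitochondrial DNA took from 52.0% to 71.8% of them. Levels are given as CPM, a gene's count scaled to a common library size after trimmed-mean (TMM) adjustment (counts per 1000000). Each comparison comes from 1 fit of all 9 libraries with edgeR's quasi-likelihood test. Log2 folds and their standard errors (SE) come from that fit, and a gene is called where its Benjamini-Hochberg adjusted p over all 14124 genes is under 0.05. In a piece of tissue, fewer cells of a type and less RNA per cell cannot be told apart.

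Promoters from the Ifit, Oas, GTPase and Ifitm families are shown here because they carry the elements through which these genes are known to respond. RefSeq windows (GRCm38.p6) from 250 bases before to 50 bases after the annotated start were at hand for 30 of the 39 members. They were searched on both strands for the ISRE core (GAAA, any 2 bases, GAAA) and the GAS core (TTC, any 3 bases, GAA). The ISRE core was found in 20 of 30 members (66.7%), against 3.99% of all 27025 genes with a window, and the GAS core in 9 of 30 (30.0%), against 9.55%. Both cores occurred in 6 members (20%), against 0.614% of all genes. A match is a description of the letters in this window and not a measured binding site.

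The printed windows run 5′ to 3′ on the strand of the gene, with matches to either core in capitals. They belong to Ifit3 (ENSMUSG00000074896, window chr19:34583279-34583578, plus strand), Oas3 (ENSMUSG00000032661, chr5:120777610-120777909, minus strand), Gbp3 (ENSMUSG00000028268, chr3:142559794-142560093, plus strand), Igtp (ENSMUSG00000078853, chr11:58199306-58199605, plus strand), Irgm1 (ENSMUSG00000046879, chr11:48871371-48871670, minus strand), Irgm2 (ENSMUSG00000069874, chr11:58214727-58215026, plus strand) and Ifitm3 (ENSMUSG00000025492, chr7:141010695-141010994, minus strand). They were chosen with the values of these genes known.
Ifit3: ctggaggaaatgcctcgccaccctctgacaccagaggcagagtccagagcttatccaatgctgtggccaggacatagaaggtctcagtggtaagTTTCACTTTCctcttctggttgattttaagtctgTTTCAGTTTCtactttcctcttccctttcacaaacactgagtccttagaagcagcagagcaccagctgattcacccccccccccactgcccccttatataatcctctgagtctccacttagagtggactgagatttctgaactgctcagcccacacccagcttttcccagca
Oas3: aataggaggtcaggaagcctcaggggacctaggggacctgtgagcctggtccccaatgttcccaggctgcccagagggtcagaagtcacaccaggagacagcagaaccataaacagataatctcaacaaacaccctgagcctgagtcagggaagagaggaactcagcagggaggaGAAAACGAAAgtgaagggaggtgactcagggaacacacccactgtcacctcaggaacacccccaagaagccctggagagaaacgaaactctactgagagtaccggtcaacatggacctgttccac
Gbp3: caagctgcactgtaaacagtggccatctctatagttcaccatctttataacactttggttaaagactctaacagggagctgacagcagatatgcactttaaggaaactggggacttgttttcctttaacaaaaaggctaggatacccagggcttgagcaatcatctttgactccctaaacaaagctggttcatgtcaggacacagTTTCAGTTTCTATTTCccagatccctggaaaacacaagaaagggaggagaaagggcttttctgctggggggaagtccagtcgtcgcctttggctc
Igtp: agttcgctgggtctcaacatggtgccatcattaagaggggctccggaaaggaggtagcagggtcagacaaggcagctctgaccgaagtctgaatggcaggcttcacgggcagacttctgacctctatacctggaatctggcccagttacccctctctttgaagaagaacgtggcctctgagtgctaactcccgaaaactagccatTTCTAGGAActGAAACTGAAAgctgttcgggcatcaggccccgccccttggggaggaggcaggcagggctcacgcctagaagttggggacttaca
Irgm1: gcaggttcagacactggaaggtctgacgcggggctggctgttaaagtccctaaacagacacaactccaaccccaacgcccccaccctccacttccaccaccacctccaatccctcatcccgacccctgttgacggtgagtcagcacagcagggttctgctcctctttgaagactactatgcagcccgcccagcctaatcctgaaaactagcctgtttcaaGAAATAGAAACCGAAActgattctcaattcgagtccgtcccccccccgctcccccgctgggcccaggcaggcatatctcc
Irgm2: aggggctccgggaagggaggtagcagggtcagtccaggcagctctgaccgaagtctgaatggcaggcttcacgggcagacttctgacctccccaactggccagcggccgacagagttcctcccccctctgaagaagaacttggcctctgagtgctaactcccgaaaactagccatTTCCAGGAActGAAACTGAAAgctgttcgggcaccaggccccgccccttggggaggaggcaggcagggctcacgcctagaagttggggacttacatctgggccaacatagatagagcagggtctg
Ifitm3: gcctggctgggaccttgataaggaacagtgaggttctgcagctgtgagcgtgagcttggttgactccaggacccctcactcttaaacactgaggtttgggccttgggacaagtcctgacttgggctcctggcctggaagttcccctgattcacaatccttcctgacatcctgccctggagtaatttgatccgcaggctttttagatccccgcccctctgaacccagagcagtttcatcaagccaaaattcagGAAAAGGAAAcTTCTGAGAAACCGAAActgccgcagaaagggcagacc

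All 6 GTPases with a window held the ISRE core, and 3 of them (Gbp7, Igtp and Irgm2) also held the GAS core. In Igtp the GAS core began 45 bases before the start and the ISRE core 34 bases before it, with 2 bases between them. Irgm2 had the same arrangement, 75 and 64 bases before the start. Gbp3 and Irgm1 each held a pair of overlapping ISRE cores and no GAS core. Ifitm3 had its matches just after the start, with ISRE cores beginning at 2 and 19 bases and a GAS core at 13 bases that overlapped the second of them by 3 bases. Of the Ifit genes, 3 of 4 held the ISRE core, and of the 3 Oas genes with a window, 2 held it.

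At 1 day after I/R the set split by family, while its total was close to that of genes in general. Against sham, 12 of 39 members were called higher (30.8%, where 29.4% of all tested genes were) and 8 were called lower (20.5%, where 24.8% of all tested genes were). Both directions together made 20 of 39, where 54.2% of all tested genes were called. The libraries of 17 members lay wholly above sham and those of 8 wholly below, where 33.5% and 29.7% of all tested genes did (63.2% in all). The median log2 fold over the 39 members was 0.15, beside 0.04 over all tested genes. The Ifitm genes (3 of 3) and Oas genes (3 of 4) were called higher, and 6 of 7 GTPases were called lower. Leaving out 1 library changed these counts by more than 1.5 times: without mouse 4 there were 9 calls (4 higher and 5 lower), without sham mouse 2 there were 12 (8 and 4), without sham mouse 3 there were 11 (7 and 4), and without mouse 5 there were 13 (10 and 3). Calls over all genes fell in the same fits, from 4153 higher and 3496 lower to 3166 and 2979 without mouse 4. They were 3431 and 2922 without sham mouse 2, 3613 and 3068 without sham mouse 3, and 3522 and 2869 without mouse 5. Here and throughout, libraries were left out 1 at a time. Scaling by total count alone, in place of TMM, raised the median log2 fold of all genes by 0.48 and gave 23 members higher and 0 lower. All genes then split 6860 higher to 1057 lower, against 4153 to 3496 with TMM, so directions at 1 day are relative to the scaling.

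**Figure D1:**
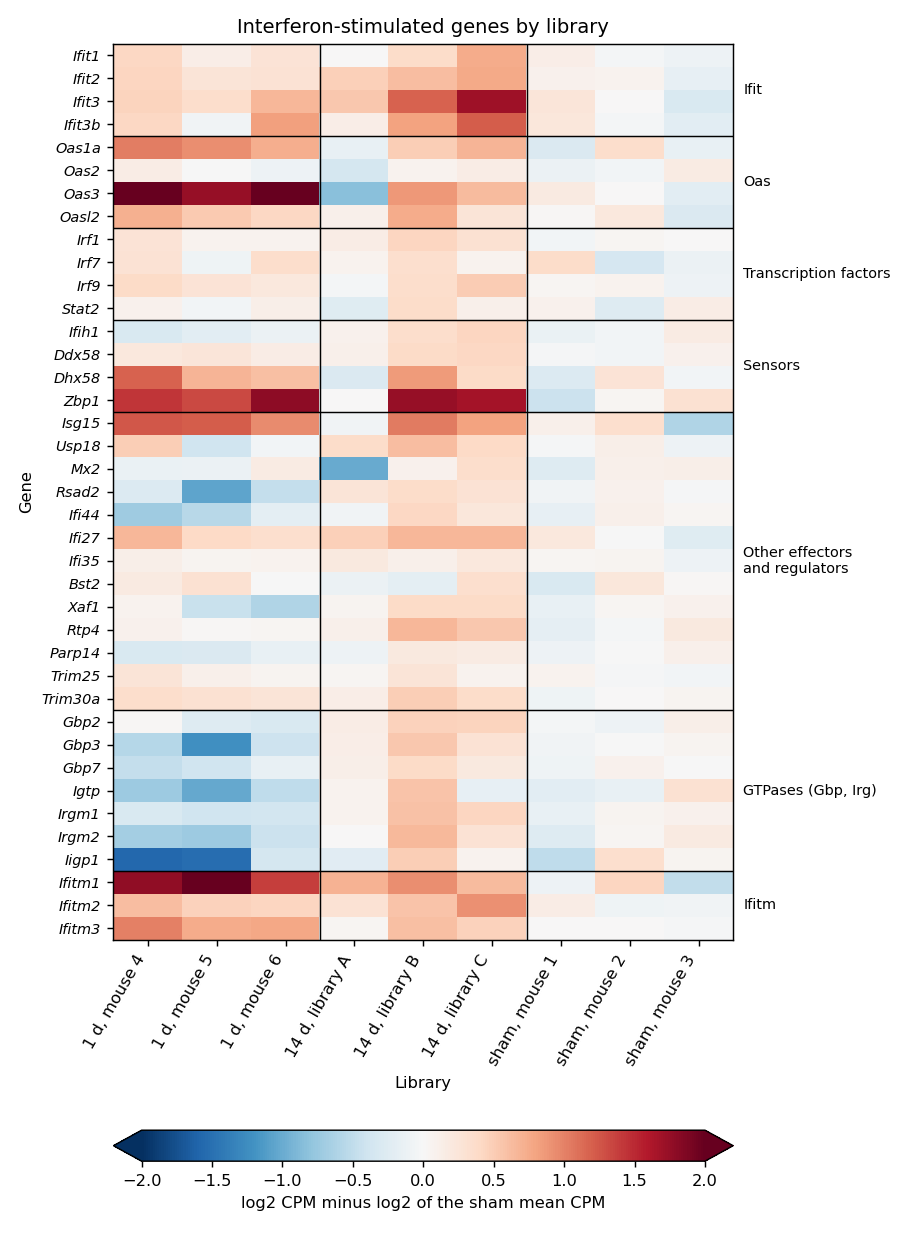
Level of each of the 39 members (rows, by family) in each library (columns), as log2 CPM minus log2 of the sham mean CPM (color, from -2 to 2). The Ifitm genes and Oas3 are red and 6 of the 7 GTPases blue in the libraries of mice 4, 5 and 6, and most members are pale to red in 14-day libraries B and C.

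Interferon transcripts themselves were almost absent from the counts. Of 21 interferon genes listed, 17 were matched, and none had enough counts to be tested. The gene for interferon beta, Ifnb1, had 1 count, in mouse 5, and the gene for interferon gamma, Ifng, had 1 count, in 14-day library B. Across the 9 libraries 11 of the 17 genes had 0 counts and the other 6 had 1 count each. A count of 0 allows up to 3 counts, which is from 0.0679 to 0.192 CPM depending on the library, by counting error only.

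Among 14 genes for interferon receptors and Jak-Stat signalling, 6 were called higher (42.9%, where 29.4% of all tested genes were) and 2 lower (14.3%, where 24.8% were) at 1 day against sham. Ifnar1, a chain of the type I receptor, had 25.1, 23.6 and 22.1 CPM in 1-day mice 4, 5 and 6, against 17.7, 17.1 and 16.6 CPM in sham mice 1, 2 and 3. The groups did not overlap, and the log2 fold was 0.47 (SE 0.09, edgeR adjusted p = 0.00158). Ifngr2, a chain of the interferon gamma receptor, had 43.8, 50.6 and 56.2 CPM in 1-day mice, against 84.6, 84.3 and 92.5 CPM in sham mice. It was lower in every 1-day library, with a log2 fold of -0.80 (SE 0.11, edgeR adjusted p = 0.000214), a call that was lost with total-count scaling. Jak2, a kinase that works at the interferon gamma receptor, was higher at a log2 fold of 0.50 (edgeR adjusted p = 0.00135). Il10rb, a receptor chain shared by interferon lambda and interleukin 10, had 12.1, 14.7 and 19.7 CPM in 1-day mice, against 29.5, 30.8 and 31.2 CPM in sham mice. It too was lower in every 1-day library (log2 fold -0.99, SE 0.15, edgeR adjusted p = 0.000352).

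The transcription factors among the members were not called at 1 day. Log2 folds of Irf1, Irf7, Irf9 and Stat2 ran from 0.06 for Stat2 to 0.29 for Irf9 against sham. No call among these 4 came from edgeR, DESeq2 or limma-voom, and 0 of them had an unadjusted edgeR p under 0.05. Irf9, the DNA-contacting partner of Stat2, had 12.1, 11.2 and 10.7 CPM in 1-day mice, against 9.5, 9.71 and 8.63 CPM in sham mice, which did not overlap. Its adjusted p was 0.0898.

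Of the 4 nucleic acid sensors, the pair with the lowest levels rose. Zbp1, a sensor of Z-form nucleic acid that can trigger necroptosis, had 1.67, 1.55 and 2.15 CPM in 1-day mice, against 0.461, 0.640 and 0.767 CPM in sham mice. Every 1-day library lay above every sham library, at a log2 fold of 1.54 (SE 0.42, edgeR adjusted p = 0.00934). Dhx58, which encodes the RIG-I-like protein LGP2, had 2.40, 1.71 and 1.61 CPM in 1-day mice, against 0.879, 1.28 and 1.02 CPM in sham mice. Its groups did not overlap either, and its log2 fold was 0.85 (edgeR adjusted p = 0.0315), though the call was lost when sham mouse 1 or 3 or 1-day mouse 4 was left out. Ddx58 (RIG-I) and Ifih1 (MDA5), the RNA sensors that signal through Mavs, had log2 folds of 0.21 and -0.21 and were not called.

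In a wider list of 18 tested genes of nucleic acid sensing and interferon induction, 11 were called higher (61.1%, where 29.4% of all tested genes were) and 2 lower (11.1%, where 24.8% were) at 1 day. Samhd1, which breaks down deoxynucleotides, was higher at a log2 fold of 0.47 (edgeR adjusted p = 0.00522), and Tbk1, the kinase that activates Irf3, at 0.27 (edgeR adjusted p = 0.0384). The Tbk1 call was lost under 11 of 18 alternatives. Mavs, the mitochondrial adaptor of the RIG-I-like receptors, had 20.3, 19.6 and 22.2 CPM in 1-day mice, against 32.7, 37.1 and 31.4 CPM in sham mice. It was lower in every 1-day library, with a log2 fold of -0.71 (SE 0.10, edgeR adjusted p = 0.000204), a call that was lost with total-count scaling. Tlr3, the endosomal receptor for double-stranded RNA, was lower at -0.36 (edgeR adjusted p = 0.0385). Its sign turned with total-count scaling, and the call was lost under 5 of the other alternatives.

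Ifit proteins bind viral RNA that lacks the cap marks of the host. All 4 Ifit genes, which lie together on chromosome 19, had positive log2 folds at 1 day, with a median of 0.37. Of them 1 was called higher (25%, where 29.4% of all tested genes were). Ifit2 had 13.3, 11.8 and 12 CPM in 1-day mice, against 10.4, 10.3 and 8.82 CPM in sham mice. The groups did not overlap, at a log2 fold of 0.33 (SE 0.11, edgeR adjusted p = 0.0248), but the call was lost with DESeq2 and when sham mouse 2 or 3 or 1-day mouse 4 was left out. Ifit3 had 4.01, 3.73 and 4.66 CPM in 1-day mice, against 3.48, 2.97 and 2.36 CPM in sham mice, and was not called (log2 fold 0.47, edgeR adjusted p = 0.163). Ifit3 and Ifit3b are near copies, with 51.2% of the 50-base stretches of Ifit3 found in another gene, so their separate levels are uncertain.

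Oas enzymes make 2′-5′-linked oligoadenylates, which activate RNase L, and their genes lie together on chromosome 5. Oas3 had 1.90, 1.23 and 1.66 CPM in 1-day mice, against 0.419, 0.371 and 0.319 CPM in sham mice. These were 152 counts in the 1-day group and 26 in the sham group, with no overlap, and the log2 fold of 2.09 (SE 0.37, edgeR adjusted p = 0.000785) was the highest of the 39 members. Oas1a had 1.88, 1.75 and 1.52 CPM in 1-day mice, against 0.754, 1.18 and 0.831 CPM in sham mice. Its groups did not overlap (log2 fold 0.88, edgeR adjusted p = 0.015), but 57.6% of its 50-base stretches also occur in other genes, all in Oas1g, and the call was lost without sham mouse 1 or mouse 4. Oasl2, an Oas-like protein, had 7.40, 6.47 and 6.00 CPM in 1-day mice, against 4.61, 5.26 and 3.71 CPM in sham mice (log2 fold 0.54, edgeR adjusted p = 0.028), without overlap. Leaving out sham mouse 1 or 3, or 1-day mouse 4 or 5, ended that call. Oas2 was at 5.97, 5.36 and 5.06 CPM in 1-day mice, against 4.98, 5.19 and 6.07 CPM in sham mice, which overlapped (log2 fold 0.03).

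The 13 other effectors and regulators did not move as a block at 1 day. Of them 3 were called higher (23.1%, where 29.4% of all tested genes were) and 2 lower (15.4%, where 24.8% were). The other 8 were not called, and the median log2 fold was 0.07, beside 0.04 over all tested genes. Isg15, a ubiquitin-like protein that is joined to other proteins, averaged 1.28 ± 0.14 CPM in 1-day mice and 0.584 ± 0.183 CPM in sham mice (SD, n = 3 each), with a log2 fold of 1.08 (edgeR adjusted p = 0.0148). That call was lost without sham mouse 3 or mouse 4. Ifi27, a small membrane protein, had 7.56, 6.27 and 6.00 CPM in 1-day mice, against 5.53, 4.72 and 4.03 CPM in sham mice. It lay higher in every 1-day library (log2 fold 0.47, edgeR adjusted p = 0.0157), and the call was lost when sham mouse 2 or 3 or 1-day mouse 4 was left out. Trim30a, a negative regulator of innate signalling in the mouse, had 14.3, 13.9 and 13.4 CPM in 1-day mice, against 10.6, 11.3 and 11.7 CPM in sham mice. Those groups did not overlap (log2 fold 0.31, edgeR adjusted p = 0.026), and the call was lost with DESeq2 and in 5 of 9 fits that left out a library.

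Rsad2 and Ifi44 were the effectors called lower. Rsad2 encodes viperin, which makes a chain-terminating nucleotide that stops viral polymerases. It had 10.8, 6.23 and 9.32 CPM in 1-day mice, against 12.4, 13.8 and 12.8 CPM in sham mice, and the groups did not overlap. Its log2 fold was -0.56 (SE 0.16, edgeR adjusted p = 0.0116), and -0.06 with total-count scaling, where it was not called. Ifi44 averaged 3.78 ± 0.71 CPM in 1-day mice and 5.23 ± 0.48 CPM in sham mice (SD, n = 3 each), with a log2 fold of -0.49 (edgeR adjusted p = 0.0323). The Ifi44 call was lost with total-count scaling and when sham mouse 2 or 3 or 1-day mouse 4 or 5 was left out. The 8 members that were not called were Usp18, which removes Isg15 from proteins, the dynamin-like GTPase Mx2, Ifi35, the tether Bst2, Xaf1, Rtp4, the ADP-ribosyltransferase Parp14 and the ubiquitin ligase Trim25. Their log2 folds ran from -0.26 for Xaf1 to 0.16 for Bst2.

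**Figure D2:**
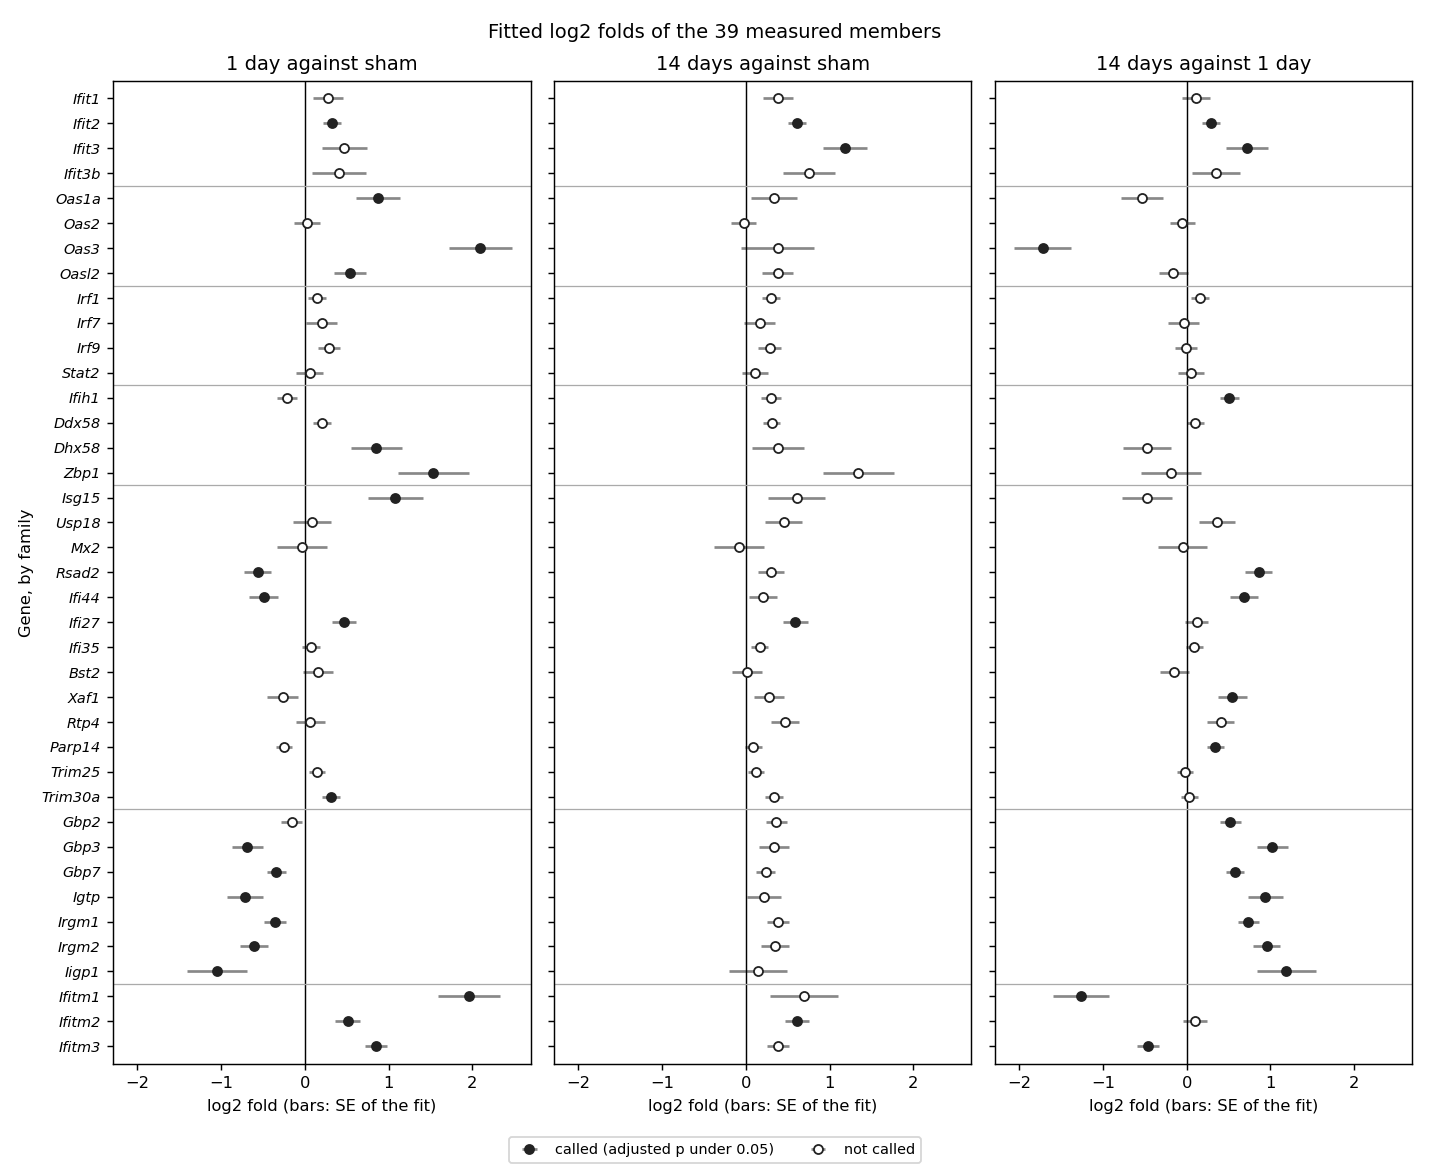
Fitted log2 fold of each member (rows, by family) at 1 day against sham, 14 days against sham and 14 days against 1 day (panels), with bars for the SE of the fit and filled points for adjusted p under 0.05. At 1 day the GTPases lie left of 0 and the Ifitm genes right of it, and at 14 days against 1 day all 7 GTPases lie right of 0.

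The interferon-inducible GTPases coat and break the vacuoles of intracellular microbes, and in mouse cells they are known for a strong response to interferon gamma. The family called GTPases here holds Gbp and Irg genes only. The GTPase Mx2 is counted among the effectors and was not called in any comparison. The Gbp genes measured here lie on chromosome 3, and Igtp, Irgm1 and Irgm2 lie on chromosome 11. At 1 day all 7 GTPases had negative log2 folds, with a median of -0.60, and 6 of 7 were called lower (85.7%, where 24.8% of all tested genes were). Gbp2, at a log2 fold of -0.16, was not called. With total-count scaling, which moved the median of all genes up by 0.48, the median over the 7 GTPases was -0.12 with 0 called lower, and Gbp2, Gbp7 and Irgm1 turned to positive log2 folds. Relative to the median of all genes, the GTPase median was -0.65 with either scaling. Scaling moves all genes of a library alike, so this difference could hardly change and is no check of the direction.

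Gbp3 had 4.25, 2.7 and 4.75 CPM in 1-day mice, against 6.03, 6.30 and 6.58 CPM in sham mice, and the log2 fold was -0.69 (SE 0.19, edgeR adjusted p = 0.00912). Irgm2, which acts with the other regulatory Irg proteins on host membranes, had 6.40, 6.23 and 7.62 CPM in 1-day mice, against 8.62, 10.5 and 11.7 CPM in sham mice (log2 fold -0.60, SE 0.17, edgeR adjusted p = 0.0107). For neither gene did the groups overlap, and neither call was lost other than with total-count scaling. Irgm1, which also guides autophagy, had 8.96, 8.38 and 8.60 CPM in 1-day mice, against 10, 11.5 and 11.8 CPM in sham mice. Those groups did not overlap, at a log2 fold of -0.36 (edgeR adjusted p = 0.0387), and the call was lost with limma-voom (adjusted p = 0.055) and when sham mouse 2 or 3 or 1-day mouse 4 or 5 was left out.

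Igtp, the protein also called Irgm3, had 4.05, 3.30 and 4.70 CPM in 1-day mice, against 5.74, 6.03 and 8.24 CPM in sham mice. The groups did not overlap (log2 fold -0.72, edgeR adjusted p = 0.0153), and the call was lost without sham mouse 3 or mouse 5. The annotated span of Irgm2 on chromosome 11 (58199618 to 58222782) covers most of that of Igtp (58199556 to 58207591), and 11.8% of the 50-base stretches of Igtp occur in Irgm2, so reads may have been divided between them in a way that the files do not show. Gbp7 had 12, 12.7 and 15.1 CPM in 1-day mice, against 15.7, 17.8 and 16.6 CPM in sham mice (log2 fold -0.34, edgeR adjusted p = 0.0222), a call that was lost without sham mouse 2, mouse 4 or mouse 5. Iigp1, an effector GTPase loaded onto vacuoles, had 10.9, 11.3 and 25.5 CPM in 1-day mice, against 22.9, 40.7 and 33.7 CPM in sham mice. Mouse 6 lay within the sham range, so its groups overlapped, and its log2 fold of -1.05 (SE 0.36, edgeR adjusted p = 0.0328) was called here but not under 9 of 18 alternatives.

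Ifitm proteins sit in membranes and hinder the fusion of viruses with the cell, and their genes lie together on chromosome 7. All 3 were called higher at 1 day (29.4% of all tested genes were), with a median log2 fold of 0.85. Ifitm3 had 31.8, 26.5 and 27.1 CPM in 1-day mice, against 15.9, 15.9 and 15.7 CPM in sham mice. The sham libraries were nearly equal and every 1-day library was well above them, at a log2 fold of 0.85 (SE 0.13, edgeR adjusted p = 0.000407). Ifitm1 had 1.54, 2.82 and 1.16 CPM in 1-day mice, against 0.419, 0.607 and 0.319 CPM in sham mice, which was 165 counts against 33, with no overlap (log2 fold 1.96, SE 0.37, edgeR adjusted p = 0.0011). Ifitm2 had 16.3, 14.6 and 14.2 CPM in 1-day mice, against 11.7, 9.91 and 10.1 CPM in sham mice. It too lay apart (log2 fold 0.51, edgeR adjusted p = 0.0116), a call that was lost without sham mouse 2 or mouse 4, and 48.5% of its 50-base stretches also occur in other genes.

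Per kilobase of exon, Ifitm3 and Ifitm2 had the highest levels of the set in sham hearts, at 23.4 ± 0.23 and 16.1 ± 1.49 CPM per kilobase (SD, n = 3 each). Iigp1 followed at 5.57 ± 1.55 CPM per kilobase and Bst2 at 5.20 CPM per kilobase, and these neighbours in the order did not differ beyond their spread. Oas3 was the lowest, at 0.05 CPM per kilobase in sham hearts and 0.23 CPM per kilobase in 1-day hearts. The genes with the largest log2 folds at 1 day, Oas3, Ifitm1 and Zbp1, were thus among the members with few counts.

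**Figure D3:**
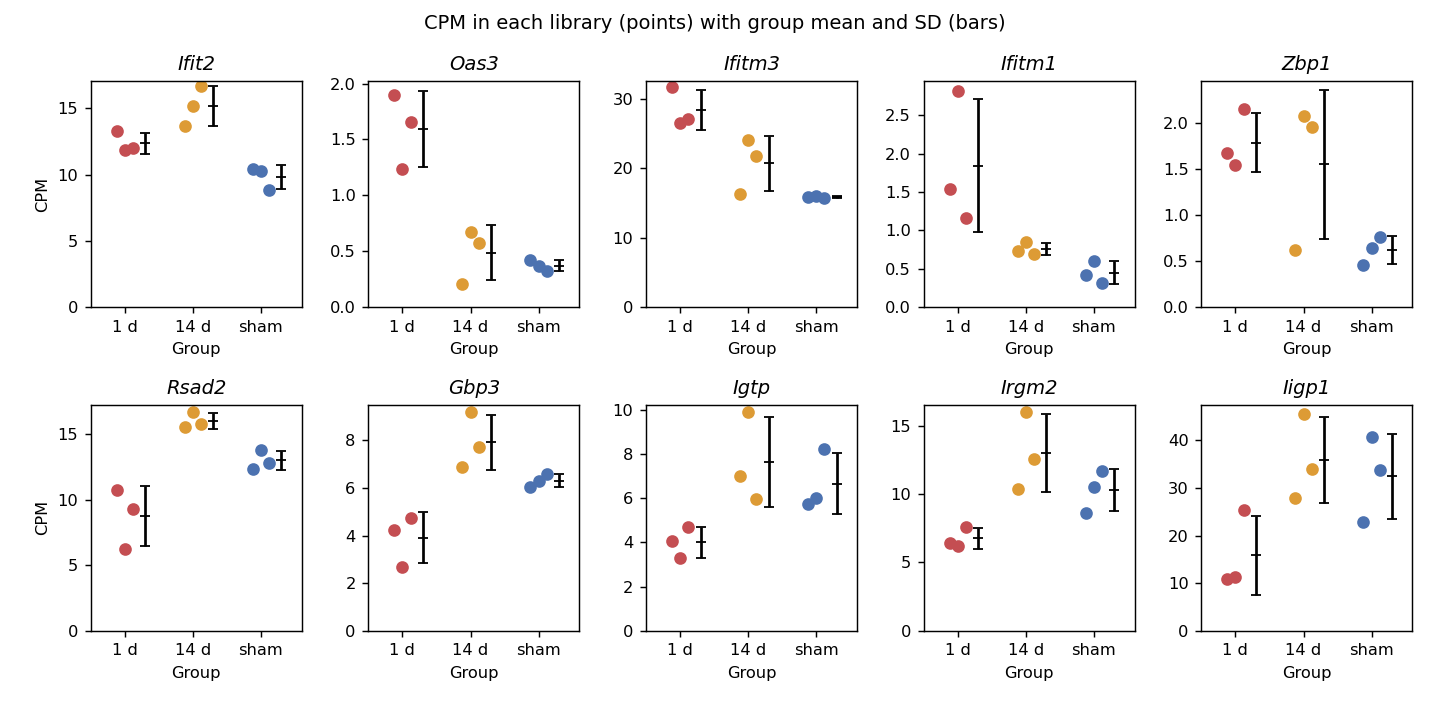
CPM of 10 members in each library (points) with the mean and SD of each group (bars, n = 3), for 1 day, 14 days and sham. Ifitm3, Ifitm1 and Oas3 stand highest at 1 day, while Rsad2, Gbp3, Igtp and Irgm2 stand lowest there.

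Set against each other, the 8 Ifit and Oas genes had a median log2 fold of 0.44 at 1 day and the 10 measured GTPase and Ifitm genes one of -0.35, a difference of 0.79. Of the first 8, 4 were called higher and 0 lower by edgeR (DESeq2 and limma-voom also gave 0 lower, and 0 had a negative log2 fold with an unadjusted p under 0.05). Of the 10, 3 were called higher and 6 lower, and this split fell on the line between families: the 3 were the Ifitm genes and the 6 were GTPases. Grouping GTPases with Ifitm genes therefore joined the families with the lowest and highest medians of the set at 1 day. Of all tested genes 29.4% were called higher at 1 day and 24.8% lower. No p is given for the medians, since the members were chosen with earlier results known.

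Ratios of counts within a library do not depend on scaling. The summed counts of the 3 Ifitm genes over those of the 7 GTPases were 0.869, 0.827 and 0.570 in 1-day mice 4, 5 and 6, 0.321, 0.305 and 0.392 in 14-day libraries A, B and C, and 0.354, 0.258 and 0.262 in sham mice 1, 2 and 3. Every 1-day library was above every other library, and the 14-day and sham ranges overlapped. The Oas genes over the GTPases gave 0.301, 0.279 and 0.191 in 1-day mice, 0.108, 0.114 and 0.124 in 14-day libraries, and 0.136, 0.117 and 0.110 in sham mice. For the gene pair Ifitm3 over Irgm2 the ratios were 4.96, 4.25 and 3.55 in 1-day mice, 1.57, 1.5 and 1.73 in 14-day libraries, and 1.84, 1.52 and 1.34 in sham mice. In all these ratios the 1-day libraries lay apart from both other groups, and mouse 6 was the nearest to them.

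**Figure D4:**
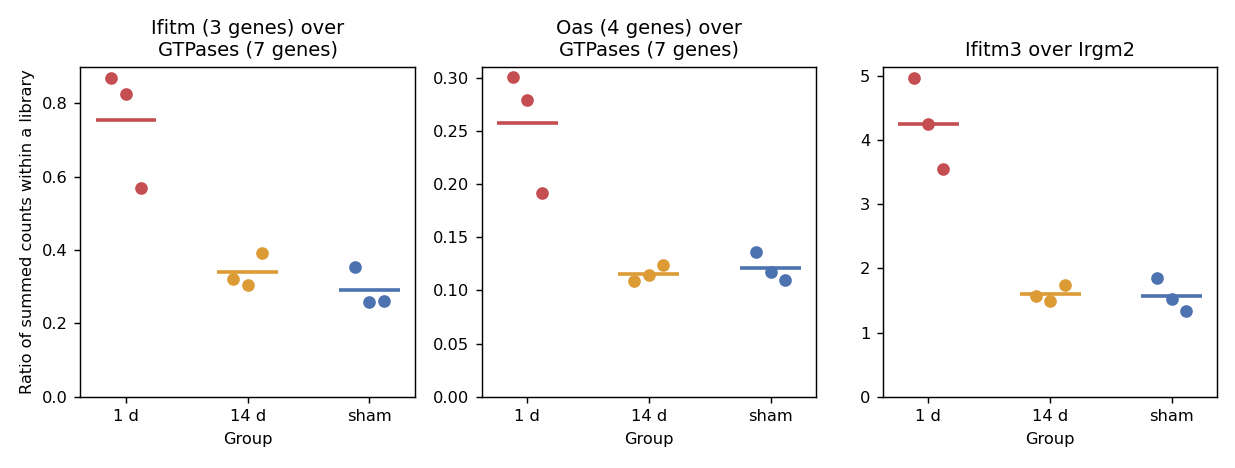
Ratio of summed counts within each library (points, with the mean of 3 as a line) for Ifitm over GTPase genes, Oas over GTPase genes, and Ifitm3 over Irgm2. The 1-day points are the highest in each panel, and the 14-day and sham points share a range.

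Cell type markers moved with the 1-day comparison, and their part in these results was not tested. Of all tested genes, 29.4% were called higher and 24.8% lower in this comparison. Of 8 neutrophil markers, 6 were tested and all 6 were called higher, and the summed level was 125, 144 and 50.8 CPM in mice 4, 5 and 6, against 1.72 to 5.11 CPM in sham mice. Ly6g, a defining neutrophil marker, was at 0 in all libraries. All 8 markers of monocytes and recruited macrophages were called higher, at a sum of 58.8 to 67.7 CPM in 1-day mice, against 6.23 to 7.99 CPM in sham mice. Of 8 macrophage markers 4 were called higher, at 202 to 228 CPM in 1-day mice, against 129 to 146 CPM in sham mice. Cardiomyocyte markers, which include the abundant contractile genes expected of ventricle, were called lower in 6 of 7, at 7014 to 13642 CPM in 1-day mice, against 19926 to 22254 CPM in sham mice. Endothelial markers were called lower in 3 of 6, at 301 to 321 CPM in 1-day mice, against 416 to 443 CPM in sham mice.

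Markers of T and NK cells were scarce, and those listed for plasmacytoid dendritic cells were mixed. Of 10 T and NK cell markers only Cd4 had enough counts to be tested, and it was not called in any comparison. The list summed to 0.792 to 1.15 CPM in 1-day mice, 1.39 to 2.90 CPM in 14-day libraries and 1.04 to 1.38 CPM in sham mice. Of 6 plasmacytoid dendritic cell markers, Siglech averaged 0.167 CPM in 1-day mice, 0.225 CPM in 14-day libraries and 0.194 CPM in sham mice, and Klk1 was at 0 in all libraries. Of that list 3 genes were tested. At 1 day against sham 1 was called higher and 1 lower (33.3% each, where 29.4% and 24.8% of all tested genes were). That list also holds Bst2, which is a member of the set, and Tcf4 and Irf8, which other cells express. Its sum was 84.7 to 92.7 CPM in 1-day mice, 126 to 140 CPM in 14-day libraries and 109 to 111 CPM in sham mice.

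At 14 days the set sat slightly above sham across families. Log2 folds were above 0 for 37 of 39 members, with a median of 0.34 beside 0.01 over all tested genes, but 4 were called higher (10.3%, where 8.75% of all tested genes were). No member was called lower (5.64% of all tested genes were), by edgeR, DESeq2 or limma-voom, and 0 had a negative log2 fold with an unadjusted p under 0.05. Library values of 15 members lay wholly above the sham values and of 0 wholly below, where 21% of all tested genes lay wholly above and 18.4% wholly below (39.4% in all). Calls in either direction covered 14.4% of all tested genes. The 4 called members were Ifit2, Ifit3, Ifi27 and Ifitm2.

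Ifit2 had 13.7, 15.2 and 16.7 CPM in 14-day libraries A, B and C, against 10.4, 10.3 and 8.82 CPM in sham mice, for a log2 fold of 0.62 (SE 0.11, edgeR adjusted p = 0.00597). This was the call at 14 days against sham that remained under all 18 alternatives. Ifit3 had 4.26, 6.62 and 9.53 CPM in 14-day libraries, against 3.48, 2.97 and 2.36 CPM in sham mice. Its groups did not overlap, though the 14-day libraries were spread widely (log2 fold 1.19, SE 0.26, edgeR adjusted p = 0.0151), and the call was lost without sham mouse 2, sham mouse 3 or library B. Ifitm2 had 12.9, 15.7 and 20 CPM in 14-day libraries, against 11.7, 9.91 and 10.1 CPM in sham mice (log2 fold 0.61, edgeR adjusted p = 0.019), and Ifi27 had 6.65, 7.50 and 7.56 CPM in 14-day libraries, against 5.53, 4.72 and 4.03 CPM in sham mice (log2 fold 0.59, edgeR adjusted p = 0.0198). Neither of these overlapped its sham group, and both calls were lost with total-count scaling and when sham mouse 2 or 3 or library B or C was left out.

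Library A was often the lowest of the 14-day group. Zbp1 had 0.623, 2.08 and 1.96 CPM in 14-day libraries, against 0.461, 0.640 and 0.767 CPM in sham mice, so library A lay within the sham range and the others above it (log2 fold 1.35, SE 0.42, edgeR adjusted p = 0.055). Oas3 had 0.208, 0.674 and 0.572 CPM in 14-day libraries, against 0.419, 0.371 and 0.319 CPM in sham mice, with library A below every sham library. Without library A, 17 members were called higher, 0 lower, while all genes gave 1823 higher and 1189 lower. Without library B or C there were 1 and 2 calls, and without sham mouse 2 or sham mouse 3 there was 1. Without mouse 6, a 1-day library that enters the shared estimate of spread, there were 9. Calls over all genes moved too, from 1236 higher and 797 lower with every library. They were 515 and 207 without library B, and 498 and 277 without library C. Without sham mouse 2 they were 314 and 164, without sham mouse 3 they were 619 and 406, and without mouse 6 they were 1752 and 1469.

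The 14-day libraries also differed in marker levels, and their part in the result was not tested. Of all tested genes, 8.75% were called higher and 5.64% lower at 14 days against sham. Macrophage markers summed to 200, 307 and 380 CPM in libraries A, B and C, against 129 to 146 CPM in sham mice, with 7 of 8 called higher. Fibroblast markers summed to 912, 1306 and 1964 CPM in libraries A, B and C, against 372 to 533 CPM in sham mice, with 5 of 6 called higher. Cardiomyocyte markers summed to 19198, 15676 and 14145 CPM in libraries A, B and C, against 19926 to 22254 CPM in sham mice. Log2 folds of these 7 genes ran from -0.58 to -0.19, and 0 of the 7 were called. In each of these lists library A was the nearest to sham, as it was for Ifit, Oas, Ifitm, sensor and GTPase medians.

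**Figure D5:**
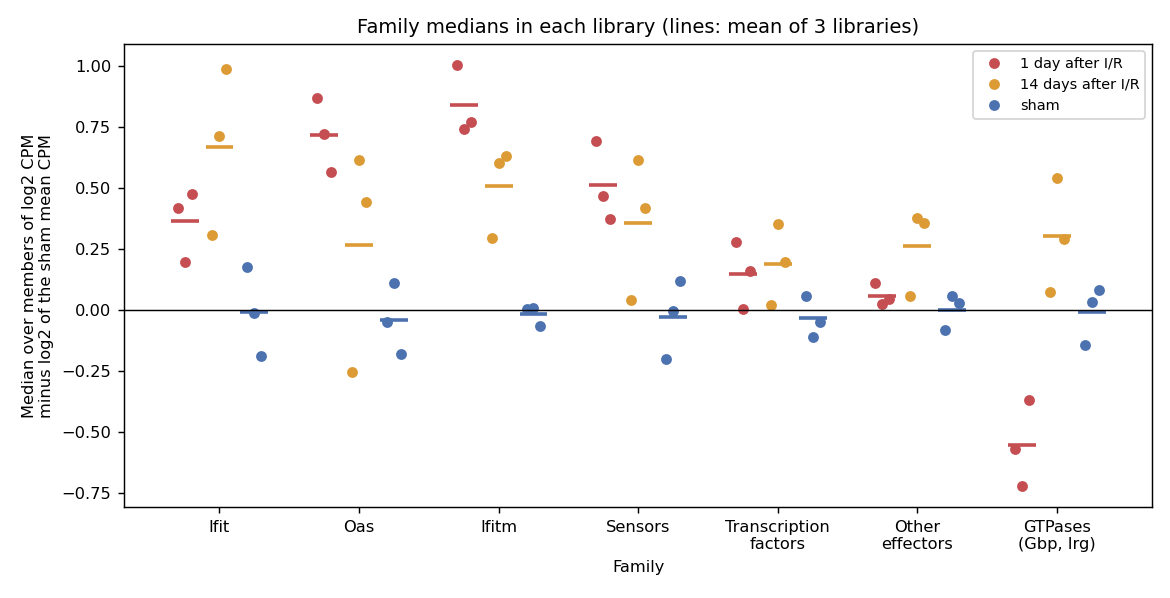
Median over the members of a family of log2 CPM minus log2 of the sham mean CPM, in each library (points), with the mean of 3 libraries as a line. The 1-day points lie below sham for GTPases and above it for the Oas and Ifitm genes, and 1 point of the 14-day group (library A) is the lowest of its group in every family.

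Of the GTPases none was called at 14 days against sham by edgeR, DESeq2 or limma-voom, although 2 of 7 had an unadjusted edgeR p under 0.05. All 7 log2 folds were positive, from 0.14 for Iigp1 to 0.38 for Irgm1, with a median of 0.34. The 8 Ifit and Oas genes had a median of 0.39 and the 10 GTPase and Ifitm genes one of 0.36, a difference of 0.03, against the difference of 0.79 at 1 day. These comparisons share the sham libraries.

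Of 14 receptor and Jak-Stat genes, 3 were called higher (21.4%, where 8.75% of all tested genes were) and 0 lower at 14 days against sham. Ifngr1, the ligand-binding chain of the interferon gamma receptor, had 30.3, 32.8 and 34.2 CPM in 14-day libraries, against 19.5, 21.3 and 21.5 CPM in sham mice. It lay far apart from sham (log2 fold 0.64, SE 0.08, edgeR adjusted p = 0.00277), whereas at 1 day its log2 fold was -0.03. Ifnar1 was also higher (log2 fold 0.35, edgeR adjusted p = 0.0288), with the call lost under 6 of 18 alternatives. Of 18 sensing genes 3 were called higher (16.7%) and 1 lower (5.56%, where 5.64% of all tested genes were). Tlr7, an endosomal receptor for single-stranded RNA, had 5.12, 7.24 and 7.77 CPM in 14-day libraries, against 3.10, 2.66 and 3.32 CPM in sham mice (log2 fold 1.16, SE 0.18, edgeR adjusted p = 0.00365). Tlr8 was higher at a log2 fold of 1.24 (edgeR adjusted p = 0.0278) and Mavs lower at -0.37 (edgeR adjusted p = 0.0271), and each of these calls was lost in 4 of 9 fits without 1 library. Total-count scaling also ended the Mavs call.

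Between the times, 14 members were called higher at 14 days than at 1 day (35.9%, where 25.1% of all tested genes were) and 3 were called lower (7.69%, where 26.8% of all tested genes were), together 17 of 39, where 51.9% of all tested genes were called. The 14-day libraries of 13 members lay wholly above the 1-day libraries and those of 4 wholly below, where 27.3% and 29% of all tested genes did (56.3% in all). All 7 GTPases were among the 14 and none of their groups overlapped, with a median log2 fold of 0.94. Gbp3 had 6.89, 9.18 and 7.73 CPM in 14-day libraries, against 4.25, 2.7 and 4.75 CPM in 1-day mice, a log2 fold of 1.02 (SE 0.18, edgeR adjusted p = 0.000873). Irgm2 had 10.4, 16.0 and 12.6 CPM in 14-day libraries, against 6.40, 6.23 and 7.62 CPM in 1-day mice (log2 fold 0.95, SE 0.17, edgeR adjusted p = 0.000794). Iigp1 had 27.8, 45.6 and 34.0 CPM in 14-day libraries, against 10.9, 11.3 and 25.5 CPM in 1-day mice (log2 fold 1.19, SE 0.35, edgeR adjusted p = 0.0198), a call that was lost under 5 of 18 alternatives. The other 4 had log2 folds from 0.52 for Gbp2 to 0.94 for Igtp. With total-count scaling, which lowered the median of all genes by 0.39, 3 of 7 GTPases were called higher and their median was 0.54.

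Rsad2 was the effector that separated the times most clearly, with 15.5, 16.7 and 15.8 CPM in 14-day libraries, against 10.8, 6.23 and 9.32 CPM in 1-day mice. The groups lay far apart (log2 fold 0.86, SE 0.16, edgeR adjusted p = 0.00103), though the call was lost with total-count scaling. Ifi44, Xaf1 and Parp14 were also higher, at log2 folds of 0.69, 0.55 and 0.34, as were Ifih1 at 0.51, Ifit3 at 0.72 and Ifit2 at 0.29. All 6 of these calls were lost with total-count scaling, where Ifit2 and Parp14 turned to log2 folds of -0.09 and -0.03. The Ifit3 call was also lost with only the 2 groups compared and without mouse 4, mouse 5, library B or library C. Having no filter on low counts ended the Ifit2 call, as did leaving out mouse 5, mouse 6, library B or library C. Without library B the Xaf1 and Parp14 calls were lost, as was Xaf1 without mouse 5 and Parp14 without mouse 4. The Ifit3 and Xaf1 groups overlapped.

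The 3 members lower at 14 days than at 1 day were Oas3, Ifitm1 and Ifitm3. Oas3 had 0.208, 0.674 and 0.572 CPM in 14-day libraries, against 1.90, 1.23 and 1.66 CPM in 1-day mice (log2 fold -1.72, SE 0.34, edgeR adjusted p = 0.00164). Ifitm1 had 0.727, 0.850 and 0.695 CPM in 14-day libraries, against 1.54, 2.82 and 1.16 CPM in 1-day mice (log2 fold -1.26, SE 0.33, edgeR adjusted p = 0.00772). Ifitm3 had 16.2, 24 and 21.8 CPM in 14-day libraries, against 31.8, 26.5 and 27.1 CPM in 1-day mice. None of these overlapped between the times, and the Ifitm3 call (log2 fold -0.46, SE 0.13, edgeR adjusted p = 0.012) was lost without mouse 4. Total-count scaling left 8 members called, 3 higher and 5 lower, where all genes gave 1066 higher and 5469 lower. Without library B 9 members were called higher, where all genes gave 2856 higher, against 3547 with every library.

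Cell type markers also moved between the times, and their part in these results was not tested. Of all tested genes, 25.1% were called higher and 26.8% lower at 14 days against 1 day. All 6 tested neutrophil markers were called lower at 14 days, with a sum of 2.22 to 3.6 CPM in 14-day libraries, against 50.8 to 144 CPM in 1-day mice. Of 8 markers of monocytes and recruited macrophages 7 were called lower, at 11.7 to 27.6 CPM in 14-day libraries, against 58.8 to 67.7 CPM in 1-day mice. Of 8 macrophage markers 4 were called higher (50%) and 2 lower (25%, near the share of all genes). Cardiomyocyte markers were called higher in 4 of 7, at 14145 to 19198 CPM in 14-day libraries, against 7014 to 13642 CPM in 1-day mice. Fibroblast markers were called higher in 4 of 6, at 912 to 1964 CPM in 14-day libraries, against 392 to 490 CPM in 1-day mice. Endothelial markers were called higher in 2 of 6 (33.3%, not far from the share of all genes). Among them was Kdr, a receptor for vascular endothelial growth factor, at a log2 fold of 1.02.

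Outside the members, 3 of 14 receptor and Jak-Stat genes were called higher (21.4%, where 25.1% of all tested genes were) and 5 lower (35.7%, where 26.8% were) at 14 days against 1 day. Il10rb had 32.2, 30.5 and 27.0 CPM in 14-day libraries, against 12.1, 14.7 and 19.7 CPM in 1-day mice (log2 fold 0.96, SE 0.15, edgeR adjusted p = 0.00041). Ifngr1 was higher at a log2 fold of 0.67 (edgeR adjusted p = 0.00011) and Ifngr2 at 0.57 (edgeR adjusted p = 0.00152). All 3 lay wholly above their 1-day values, and the Ifngr1 and Ifngr2 calls were lost with total-count scaling. Ptpn1, a phosphatase that acts on Jak2 and Tyk2, was lower at -0.96 (SE 0.13, edgeR adjusted p = 0.000191). Jak2 was lower at -0.26 (edgeR adjusted p = 0.0384), a call that was lost under 11 of 18 alternatives. Of the 18 sensing genes 3 were called higher (16.7%) and 8 lower (44.4%) at 14 days against 1 day. Tlr3 and Mavs were higher at log2 folds of 0.51 and 0.33. With total-count scaling the Tlr3 call was lost and Mavs turned to -0.05, and the Mavs call was also lost without mouse 5 or library B. Irf3, the factor that starts interferon beta transcription, was lower at -0.46 (edgeR adjusted p = 0.0046), and Samhd1 at -0.29, a call that was lost under 12 of 18 alternatives.

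A further 56 tested interferon-stimulated genes, not members of the set, gave 14 calls higher (25%, where 29.4% of all tested genes were) and 12 lower (21.4%, where 24.8% were) at 1 day against sham. Helz2, a helicase coactivator, and Adar, the RNA-editing enzyme, were higher at log2 folds of 0.35 and 0.33, and Ifi203, of the DNA-binding Ifi200 family, and Dtx3l, a ubiquitin ligase that pairs with Parp9, were lower at -0.69 and -0.44. With total-count scaling the Ifi203 call was lost (log2 fold -0.22) and Dtx3l turned to 0.05, and both the Helz2 and Adar calls were lost without mouse 4, Adar also without sham mouse 3. At 14 days against sham 9 of the 56 were called higher (16.1%, where 8.75% of all tested genes were), with a median log2 fold of 0.31. Ifi27l2a had 10.5, 14.3 and 20.5 CPM in 14-day libraries, against 6.95, 5.73 and 7.41 CPM in sham mice (log2 fold 1.18, SE 0.21, edgeR adjusted p = 0.00714), and the groups did not overlap. Samd9l, an antiviral restriction factor, was higher at a log2 fold of 0.47 (edgeR adjusted p = 0.017), a call that was lost with total-count scaling and when sham mouse 2 or 3 or library B or C was left out. At 14 days against 1 day 25 of the 56 were called higher (44.6%, where 25.1% of all tested genes were) and 8 lower (14.3%, where 26.8% were). Ifi203 had 23.4, 29.3 and 28.0 CPM in 14-day libraries, against 11.2, 12.6 and 15.4 CPM in 1-day mice (log2 fold 1.05, SE 0.13, edgeR adjusted p = 0.000103), which lay wholly apart. Helz2 and Adar were lower at 14 days than at 1 day, at log2 folds of -0.60 and -0.33, and the Adar call was lost without mouse 4 or library A.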

How the data were processed

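RNA of 9 left ventricles was sequenced. Per the labels' protocols, RNA was taken up in TRIzol and made into stranded total RNA libraries after removal of ribosomal RNA. STAR 2.7.1a and GRCm38 (mm10) were used, per the submitters' processing notes. What was deposited are raw counts of reads per gene, in whole numbers. How reads were counted, with which annotation release and strand setting, is not given in the sources used here, so genes that overlap or have near copies are uncertain: 9 members have at least 10% of their 50-base stretches in other genes, and 13 share exonic bases with another gene.

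IDs were named from GENCODE M21 (36429 of 38293 matched). All columns of counts were used. Tests used edgeR 4.0.16 in R 4.3.3 (quasi-likelihood, robust, TMM, edgeR's low-count filter, 3 groups in 1 fit). SE is the log2 fold over the root of its F value. Alternatives were DESeq2 1.42.0 size factors, total count, upper quartile and TMM without mitochondrial genes as scaling, the DESeq2 Wald test, limma 3.58.1 voom, no filter, at least 1 CPM in 3 libraries, only the 2 groups compared, and each of 9 libraries left out. CPM by total count for the overlap of groups was added after seeing the data. The test was checked on simulated counts for 1 day against sham. It recovered 79% of 100 genes with a log2 fold of 1 in size and 97% of 100 with 2. There were 13 false calls among 189, and smaller changes were not simulated. Only these genes of 13226 were changed, equally up and down, and the fit held 2 groups. In the data 54.2% of all tested genes were called at 1 day against sham. The check therefore does not cover scaling where so many genes change. Depths limit the precision of genes with few counts, such as Oas3. Replicate pairs differed by more than sampling noise (chi-square over its degrees of freedom was 7.42 to 97.3) and each library is 1 replicate. The labels number separate mice.

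The members, families and other lists were chosen with earlier results of these data known, and a list is described by its counts and median beside all tested genes. Library values were printed for called members with the highest mean CPM (up to 3 a family), and other Ifit, Oas, GTPase and Ifitm members could be named. From the other lists up to 2 called genes a direction with the highest mean CPM were named, plus Ifnb1, Ifng, Ifnar1 and Ifngr1. One gene of the receptor and Jak-Stat list is not reported here and is left out of that list's counts. The printed promoters, Irf9, Isg15 and Ifi44 values and the genes drawn by library were chosen after the values were seen. Sequences come from RefSeq (GRCm38.p6). Figures used matplotlib 3.10.9.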

Additional observations from a re-analysis of the deposited data

Results flagged for a closer look

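The difference between the times passed the edgeR test for 17 members, which is the test of whether the 1-day and 14-day changes from sham differ, since both are set against the same sham libraries. Of these, 14 were higher at 14 days than at 1 day. They were the GTPases Gbp2 (log2 fold 0.52), Gbp3 (1.02), Gbp7 (0.58), Igtp (0.94), Irgm1 (0.74), Irgm2 (0.95) and Iigp1 (1.19), and the other members Ifit2 (log2 fold 0.29), Ifit3 (0.72), Ifih1 (0.51), Rsad2 (0.86), Ifi44 (0.69), Xaf1 (0.55) and Parp14 (0.34). The 3 members lower at 14 days were Oas3 (log2 fold -1.72), Ifitm1 (-1.26) and Ifitm3 (-0.46). No group had enough libraries for a check of single libraries that stand apart.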

How the results depend on the processing

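No paired analysis was possible because the groups share no mouse numbers. In 18 alternatives, the calls that were kept throughout were Oas3, Zbp1, Ifitm1 and Ifitm3 at 1 day against sham, Ifit2 at 14 days against sham, and Oas3, Gbp3, Irgm2 and Ifitm1 at 14 days against 1 day. Over all named genes and comparisons, 2794 of 3132 values kept their direction and side of the threshold, 171 lost a call, 63 gained one and 104 turned sign, 95 of them with no call before or after.

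Scaling by total count alone gave 23 members higher and 0 lower at 1 day against sham (12 and 8 with TMM), and 8 called at 14 days against 1 day (3 higher and 5 lower, with 17 by TMM). It turned the sign of 12, 6 and 13 of 58 genes at 1 day against sham, 14 days against sham and 14 days against 1 day. Those called under either scaling took these log2 folds: Gbp7 (0.13), Irgm1 (0.14), Tlr3 (0.12), Dtx3l (0.0506), Ifngr1 (0.45) and Samd9l (0.47) at 1 day against sham, and Ifit2 (-0.094), Parp14 (-0.0302) and Mavs (-0.0529) at 14 days against 1 day. CPM by total count left 6 members whose 14-day and 1-day groups did not overlap, against 17 with TMM, where 56.3% of all tested genes did not. The share over all genes was not computed with total count, which lowered their median log2 fold by 0.39. The drop is therefore not read as a result about the members. At 14 days against sham, 7 members were called with no filter on low counts, all 7 higher, and 7 with only the 2 groups compared. Calls over all genes were 1276 higher and 793 lower with no filter. They were 1484 and 1369 with only the 2 groups, against 1236 and 797 in the main fit. The cause of these changes was not tested.

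With each library left out, members called at 1 day against sham ran from 9 to 21, called higher from 4 to 13 and called lower from 3 to 9. At 14 days against sham 1 to 17 were called, all higher and 0 lower. At 14 days against 1 day 12 to 18 were called, 9 to 15 higher and 2 to 3 lower. Calls over all genes moved in the same fits. At 1 day against sham they ran from 3166 to 4638 higher and 2869 to 3873 lower. The ranges were 314 to 1823 higher and 164 to 1469 lower at 14 days against sham. Between the times they were 2719 to 4049 higher and 2885 to 4311 lower. Members whose groups did not overlap ran from 26 to 29 at 1 day against sham, 15 to 32 at 14 days against sham and 17 to 22 at 14 days against 1 day. Taking a library out of a group can only keep or raise this count, for any gene. The rise is therefore not a result about the members. The median of Ifit and Oas genes minus that of GTPase and Ifitm genes ran from 0.68 to 0.94 at 1 day against sham, -0.07 to 0.20 at 14 days against sham and -0.74 to -0.55 at 14 days against 1 day. Genes with few counts, such as Oas3 (26 counts over 3 sham libraries), are the least precise.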
